A study of Mus musculus with 14 samples.

Results

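The matrix metalloproteases (Mmp), the ADAMTS proteases with their ADAMTS-like relatives (Adamts, Adamtsl) and the tissue inhibitors of metalloproteases (Timp) were followed in the epithelium of the forming mouse bladder and urethra. Members were the genes whose symbol was one of these stems followed by a number, and 51 of the 55228 genes in the deposited tables met that rule. They comprised 23 Mmp, 19 Adamts, 5 Adamtsl and 4 Timp genes. RNA abundance came from 14 poly(A) RNA-seq libraries of CD-1 wildtype female embryos, with no treatment in any group. At embryonic day 14.5 (E14.5) there were 4 bladder and 4 urethral libraries, and at E18.5 there were 3 of each. Each library pooled the females of 1 litter, and per the labels the epithelium was loosened with trypsin and pulled off the mesenchyme with forceps, so the groups are pooled embryos of an outbred stock rather than single animals.

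All 3 families act on the extracellular matrix. Matrix metalloproteases are zinc enzymes that cut collagens, gelatin and other matrix and cell surface proteins, and most are made as inactive precursors. ADAMTS proteases are secreted enzymes that trim procollagens, cut proteoglycans such as versican and aggrecan, or act on fibrillin microfibrils, and the ADAMTS-like proteins share their ancillary domains but lack the protease domain. TIMPs bind and block the active site of these enzymes, with different preferences. In developing organs such enzymes remodel the basement membrane and the matrix between epithelium and mesenchyme.

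Libraries held 21.1 to 36.8 M counts. Values are counts scaled to library sizes adjusted by TMM, a normalization for composition (CPM), and a gene is said to pass, or to be higher, lower, risen or fallen, when the Benjamini-Hochberg adjusted p of edgeR's quasi-likelihood F test over all genes was under 0.05. The epithelial marker Epcam averaged 447, 391, 283 and 579.9 CPM in E14.5 bladder, E14.5 urethra, E18.5 bladder and E18.5 urethra. Sums of 12 epithelial genes ran from 7720 to 9584 CPM in E14.5 bladder and 3413 to 8355 in E14.5 urethra. At E18.5 they ran from 9360 to 13520 in bladder and 8704 to 9971 in urethra. Sums of 7 pan-epithelial genes at E18.5 were 2651 to 3413 in bladder and 3573 to 4170 in urethra. The epithelial measures thus did not rank the groups alike. RNA of mesenchyme was also present. The summed level of 15 mesenchyme genes, none of them at 0 in any group, ran from 956.8 to 4386 CPM in E14.5 bladder, 2216 to 6267 in E14.5 urethra, 19890 to 30430 in E18.5 bladder and 4548 to 5490 in E18.5 urethra. In E18.5 bladder against E18.5 urethra, 12 of the 15 mesenchyme genes, all 10 smooth muscle genes, all 10 endothelial genes, 11 of 12 leukocyte genes and all 7 tested mast cell genes were higher. Other lists were mixed. Of 11 skeletal muscle genes 3 were higher in bladder and 7 lower, and of 12 epithelial genes 3 and 6. Of 10 Schwann and neural genes 1 was higher and 2 lower, and of 6 mesothelial genes 4 and 1. Of all genes tested, 37.9% passed. Values of members that are high in mesenchyme have to be read beside these sums. In such bulk samples, fewer cells of a type and less RNA per cell cannot be told apart. The 2 stages were deposited in separate tables, so stage and table cannot be told apart either.

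Of the 51 members, 40 reached a group mean of 1 CPM, 31 reached 10 CPM and 12 reached 100 CPM in at least 1 group. Mmp1a and Mmp1b, mouse collagenases, had 0 counts in all 14 libraries. Filtering on low counts left 40 members for the tissue test at E14.5 and 41 for each of the other tests. The 9 that were never tested were Adamts13, Mmp12, Mmp13, Mmp1a, Mmp1b, Mmp21, Mmp27, Mmp3 and Mmp8. Of the 42 that were tested at least once, 40 passed in some comparison, and Adamts20 and Mmp25 did not pass in any. A member low in every group but 1 entered the tests only through that group.

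Divided by exon length, Timp2 had the highest mean of all members in 3 of the 4 groups. Its mean level per kilobase of exon was 39.4 CPM in E14.5 bladder, 108 in E18.5 bladder and 63.5 in E18.5 urethra. In E14.5 urethra Mmp2 led with 56.1 CPM per kilobase, ahead of Timp2 with 47.3. Behind them, on the same scale, came Mmp11 in E14.5 bladder (38.2), Mmp11 in E14.5 urethra (41.6), Mmp2 in E18.5 bladder (87.5) and Adamts1 in E18.5 urethra (59.5). Mmp14 and Mmp15 were among the 5 leading members in every group. In E14.5 bladder Timp2 and Mmp11 had SDs of 9.49 and 14.4 CPM per kilobase (n = 4), with Mmp11 lowest in replicate 1, so their order was not resolved. The first and second members of the other groups also differed by less than the larger of their SDs. The protein pair Mmp14 and Timp2 is known to bring the Mmp2 precursor to the cell surface for activation.

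**Figure D1:**
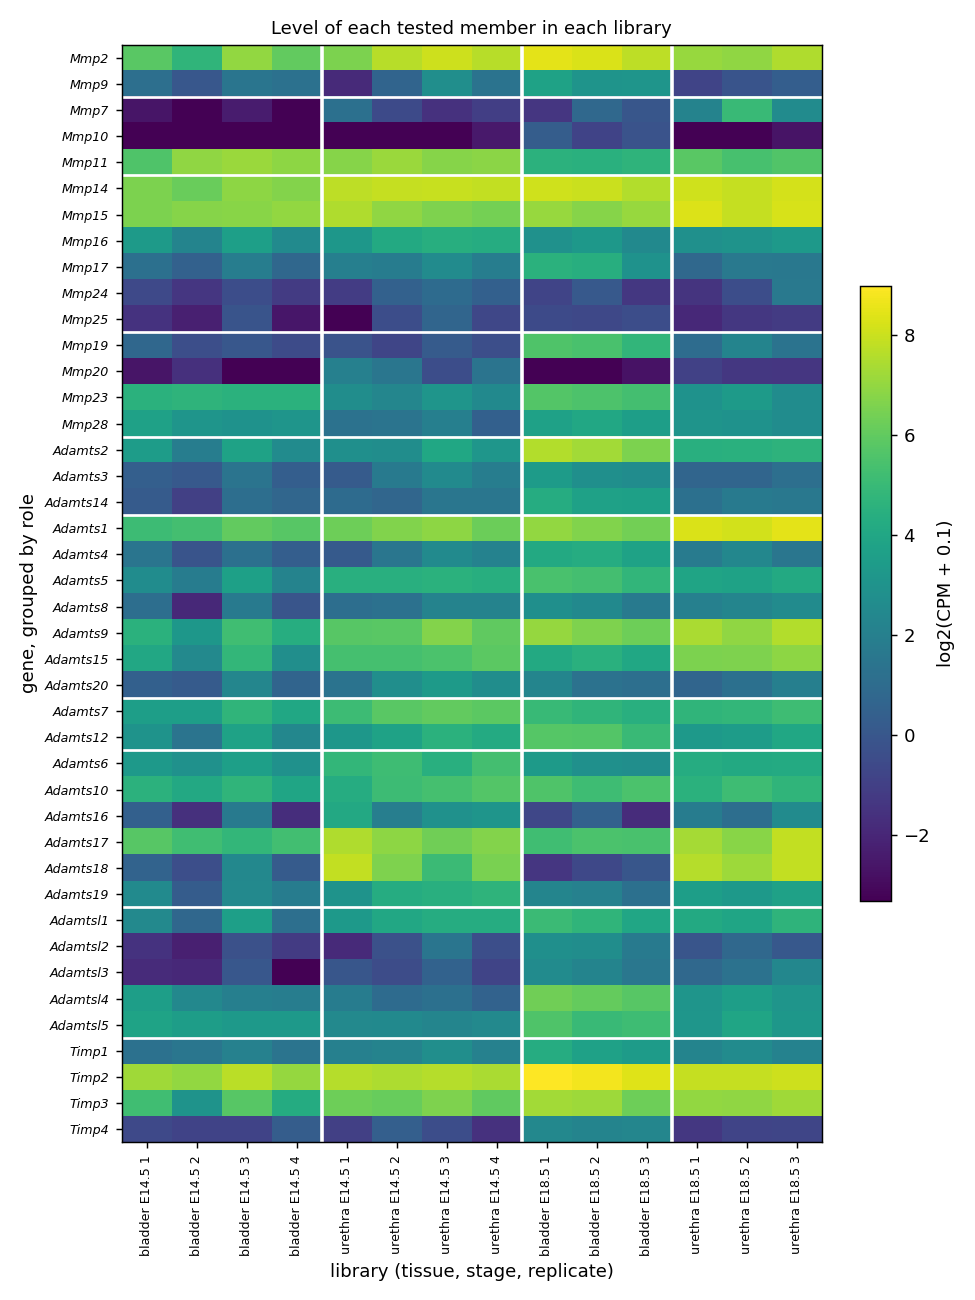
Level of the 42 tested members (rows, grouped by role, roles parted by white lines) in each of the 14 libraries (columns, groups parted by white lines), as log2 of CPM plus 0.1, from dark for low to yellow for high. Adamts18 is bright in the urethral columns of both stages and dark in the bladder, while Adamts2 and Mmp19 are brightest in the 3 E18.5 bladder columns.

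On chromosome 9, 10 of the Mmp genes lie side by side between positions 7272514 and 7699585 of GRCm38, a span of 427.1 kb. In order these are Mmp13, Mmp12, Mmp1b, Mmp3, Mmp1a, Mmp10, Mmp8, Mmp27, Mmp20 and Mmp7. Of these, 8 stayed under 1 CPM in every group, and the 2 at the end of the row, Mmp20 and Mmp7, exceeded it. The RefSeq promoters of GRCm38.p6, matched by symbol, covered 36 of the 51 members. The 15 without a match all lie outside the cluster, among them Mmp2, Mmp9, Mmp16, Mmp17 and Mmp19, so their letters were not read. The AP-1 motif was read on both strands in the loose form TGANTCA, with any base at N. In the 250 bases before the start site it lay in 8 of the 10 cluster genes and in 0 of the 26 other members matched. Over all 32851 windows of that length, from 27025 genes, 6.75% held it, beside 8 of the 39 windows of members (20.5%). Here and below, members are counted by gene, with a match in any of its windows, and the share of all is by window. The letters TATAAA lay in 7 of the 10 cluster genes and in 3 of the 26 others, against 12.4% of all windows. A GC box, GGGCGG, was the reverse, in 0 of the 10 and in 20 of the 26, against 32.7% of all windows. A match is a description of the letters and not a bound site. The 3 cluster genes that entered a test, Mmp7, Mmp10 and Mmp20, are shown first, with AP-1 and TATAAA matches in capitals, followed by 3 abundant or strongly differing members outside the cluster, with GC box matches in capitals (CCGCCC is the same motif on the other strand). All are written 5′ to 3′ on the strand of the gene.
Mmp7, plus strand, chr9:7691840-7692089: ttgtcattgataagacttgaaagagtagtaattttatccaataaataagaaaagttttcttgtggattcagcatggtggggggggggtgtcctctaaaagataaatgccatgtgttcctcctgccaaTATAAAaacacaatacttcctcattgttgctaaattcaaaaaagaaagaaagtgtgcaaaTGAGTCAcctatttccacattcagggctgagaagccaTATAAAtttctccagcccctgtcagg
Mmp10, plus strand, chr9:7502092-7502341: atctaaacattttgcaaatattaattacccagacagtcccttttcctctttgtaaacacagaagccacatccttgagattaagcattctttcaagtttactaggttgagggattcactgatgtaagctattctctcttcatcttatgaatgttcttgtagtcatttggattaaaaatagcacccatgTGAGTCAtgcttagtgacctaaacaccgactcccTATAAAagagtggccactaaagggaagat
Mmp20, plus strand, chr9:7627981-7628230: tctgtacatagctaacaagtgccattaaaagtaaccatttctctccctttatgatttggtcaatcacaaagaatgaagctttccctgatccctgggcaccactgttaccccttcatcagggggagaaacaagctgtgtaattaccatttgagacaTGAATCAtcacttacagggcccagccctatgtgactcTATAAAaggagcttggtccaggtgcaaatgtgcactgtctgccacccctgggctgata
Mmp14, plus strand, chr14:54431348-54431597: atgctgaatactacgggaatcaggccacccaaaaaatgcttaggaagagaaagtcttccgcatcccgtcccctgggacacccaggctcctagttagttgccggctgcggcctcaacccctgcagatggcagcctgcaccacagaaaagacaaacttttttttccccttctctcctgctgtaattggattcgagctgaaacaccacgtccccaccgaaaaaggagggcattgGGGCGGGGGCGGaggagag
Adamts18, minus strand, chr8:113848840-113849089: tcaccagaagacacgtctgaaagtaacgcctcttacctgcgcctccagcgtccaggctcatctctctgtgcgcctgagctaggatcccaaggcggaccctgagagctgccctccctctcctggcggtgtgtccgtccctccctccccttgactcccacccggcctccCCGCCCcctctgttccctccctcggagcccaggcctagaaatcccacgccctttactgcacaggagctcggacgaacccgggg
Adamts2, plus strand, chr11:50601835-50602084: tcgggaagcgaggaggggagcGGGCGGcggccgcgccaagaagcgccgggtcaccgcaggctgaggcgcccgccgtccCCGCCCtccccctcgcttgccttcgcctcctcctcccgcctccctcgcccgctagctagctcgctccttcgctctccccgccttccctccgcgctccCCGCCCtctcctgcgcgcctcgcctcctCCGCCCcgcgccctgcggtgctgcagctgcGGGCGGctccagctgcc
In Mmp7 and Mmp10 the AP-1 letters sat 56 bases before the start site, with TATAAA at 20 and 23 bases, and Mmp7 held a further TATAAA at 117 bases. In Mmp20 the distances were 88 and 52 bases, and its match read TGAATCA where those of Mmp7 and Mmp10 read TGAGTCA. Adamts2 held 5 GC boxes and Mmp14 held 2 that adjoin, 13 and 7 bases before the start.

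Between the tissues the members leaned towards the urethra at E14.5 and towards the bladder at E18.5. At E14.5, 15 of 40 tested members were higher in urethra and 4 in bladder, together 47.5%, where 44.0% of all genes tested passed (20.9% higher in urethra, 23.1% in bladder). The members' median log2 difference of bladder over urethra was -1.19, beside -0.03 for all genes. The total share at E14.5 was thus near that of all genes. On leaving out single libraries, the count higher in urethra ran from 10, without urethra replicate 4, to 26, without bladder replicate 3. Marker genes moved with tissue at E14.5 too. Of 15 mesenchyme genes, 0 were higher in bladder and 5 in urethra, with a median log2 difference of -1.005. Of 12 epithelial genes, 7 were higher in bladder and 1 in urethra (median 0.87), and of 7 pan-epithelial genes 5 and 0 (median 0.95). The summed pan-epithelial level ran from 4014 to 4639 CPM in E14.5 bladder and from 1656 to 3659 in E14.5 urethra. The part of these genes in the members' lean was not tested. At E18.5, 19 of 41 were higher in bladder and 11 in urethra, together 73.2%, where 37.9% of all genes passed (19.3% higher in bladder, 18.6% in urethra). The median was 0.54, beside -0.03 for all genes. Without any overlap between the groups, the bladder libraries lay above the urethral ones for 4 members and below them for 13 at E14.5, where 40.4% of all genes tested lay apart (22.9% with bladder above, 17.6% below). At E18.5 they lay above for 20 and below for 10, beside 51.1% of all genes (27.6% and 23.4%). When libraries were scaled by 7 pan-epithelial genes, the E14.5 split became 1 higher in bladder and 31 higher in urethra. Under that scaling 71.5% of all genes passed at E14.5 and their median moved to -1.02, so most genes shifted with the members. The E18.5 split became 20 and 10, where 40.5% of all genes passed with a median of 0.39.

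The 4 members higher in bladder at E14.5, Adamtsl4, Adamtsl5, Mmp23 and Mmp28, were all among the 19 of E18.5. Of the 15 members higher in urethra at E14.5, 8 were among the 11 of E18.5, namely Adamts1, Adamts6, Adamts9, Adamts15, Adamts16, Adamts17, Adamts18 and Adamts19. For Adamts5 and Mmp2 the urethra was the higher tissue at E14.5 and the bladder at E18.5.

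**Figure D2:**
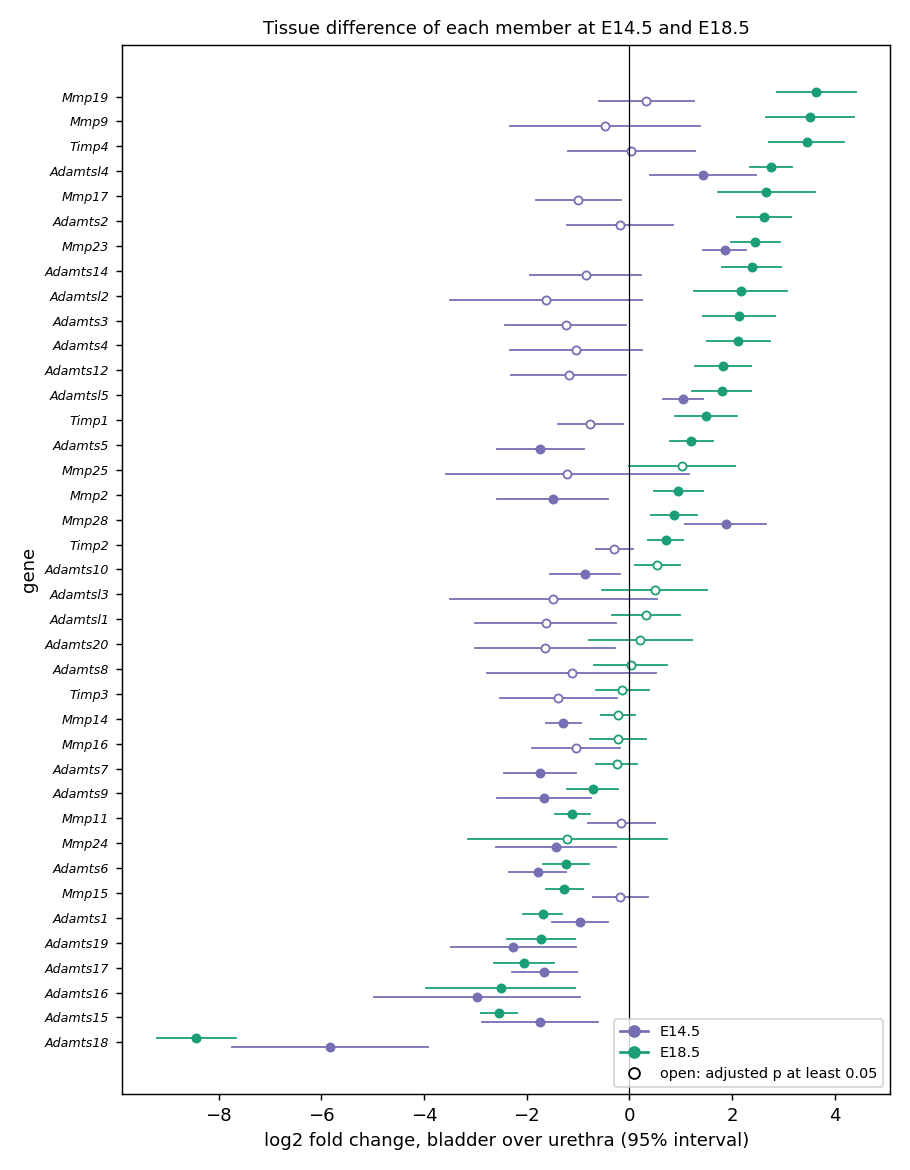
Log2 fold change of bladder over urethra at E14.5 (purple) and E18.5 (green) for each member tested at both stages, with 95% intervals, where filled points passed. Points right of 0 are higher in bladder: Adamts18 lies farthest left at both stages, and Mmp19, Mmp9 and Timp4 lie farthest right at E18.5 with E14.5 points near 0.

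With age, members rose in the bladder far more often than in the urethra. From E14.5 to E18.5, 26 of 41 members rose in bladder and 1 fell, together 65.9%, where 40.3% of all genes passed (19.9% up, 20.4% down). The members' median log2 change was 1.76, beside 0.00 for all genes. In urethra 10 rose and 5 fell, together 36.6%, where 33.0% of all genes passed (17.3% up, 15.7% down), with a median of 0.16, beside 0.00 for all genes. The urethral share was near that of all genes, and its 5 falls became 1 to 8 on leaving out single libraries, with 1 left without E18.5 replicate 2 or 3. Adamts1, Adamts2, Adamts9, Adamtsl4, Adamtsl5, Mmp19 and Mmp7 rose in both tissues, and Mmp11 fell in both. The tissue difference itself changed with stage for 18 of 41 members, 17 towards the bladder and 1, Mmp15, towards the urethra, where 22.9% of all genes passed this interaction test (12.2% and 10.7% in the 2 directions). Pan-epithelial scaling moved the median of all genes to 0.53 in bladder, -0.84 in urethra and 1.36 in the interaction. Under it the counts were 29 risen and 1 fallen in bladder, 5 risen and 13 fallen in urethra, and 31 and 0 for the interaction. Of all genes, 33.1% passed in bladder, 59.2% in urethra and 71.9% in the interaction. The interaction count was thus near the share of all genes, and the urethral count was below it. Of the 10 urethral rises, those of Adamts2, Adamts9, Adamts15, Adamtsl5 and Mmp28 did not pass under that scaling.

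**Figure D3:**
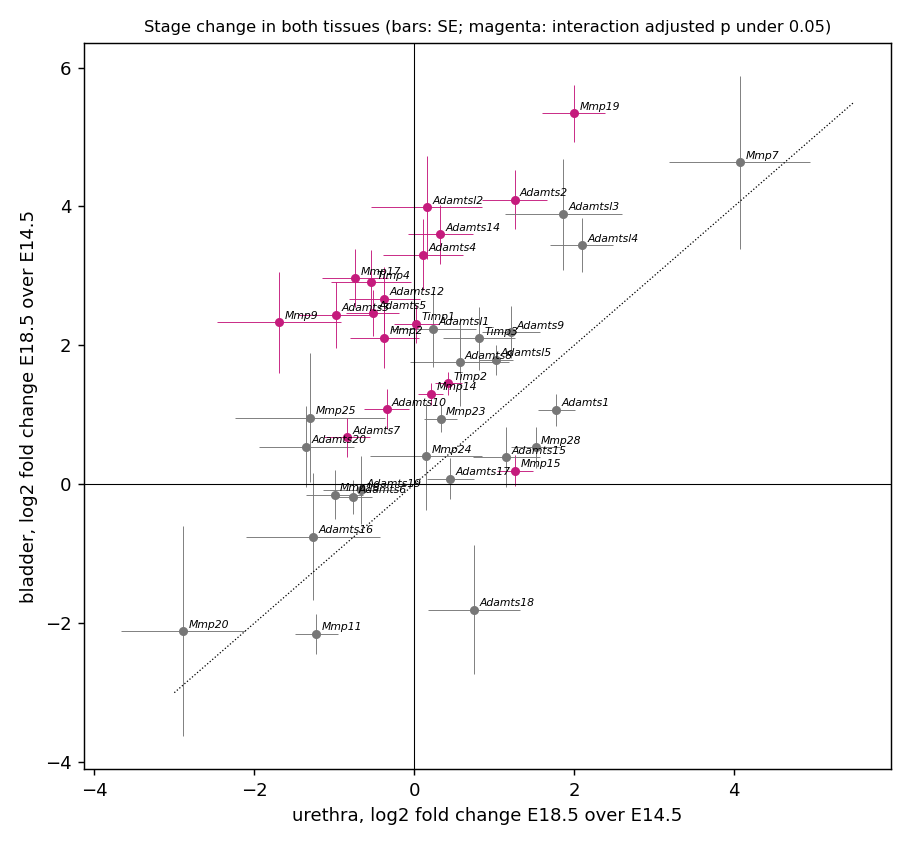
Log2 fold change of E18.5 over E14.5 in urethra (horizontal axis) and in bladder (vertical axis) for the 41 members tested, with SE bars, where magenta marks an interaction adjusted p under 0.05 and the dotted line marks equal change. Most magenta points lie above the line, with Mmp19 and Adamts2 highest among them, and Mmp15 is the magenta point below it.

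The ADAMTS genes of the fibrillin-linked and remaining branches were mainly urethral at both stages. All 6 (Adamts6, Adamts10, Adamts16, Adamts17, Adamts18 and Adamts19) had their higher level in urethra at E14.5, and all but Adamts10 at E18.5, where Adamts10 was at log2 0.54, 95% interval 0.10 to 0.98, edgeR adjusted p = 0.0541. Adamts18, a secreted protease known from mouse mutants to act in the shaping of branched epithelial organs, stood at 1.40, 0.683, 5.24 and 1.07 CPM in the 4 E14.5 bladder libraries, 231, 97.5, 33.3 and 89.7 CPM in E14.5 urethra, 0.285, 0.533 and 0.885 CPM in the 3 E18.5 bladder libraries and 193, 144 and 232 CPM in E18.5 urethra. No bladder library reached any urethral library, and the lowest urethral value was that of E14.5 replicate 3. The highest bladder value was that of E14.5 replicate 3 as well. The difference was 57.1-fold at E14.5 (log2 -5.84 ± 0.84 SE, edgeR adjusted p = 0.00122) and 347-fold at E18.5 (log2 -8.44 ± 0.34 SE, edgeR adjusted p = 6.17e-06). Without bladder replicate 3 the E14.5 value was -6.77, and without urethra replicate 1 it was -5.22, both of which passed. Adamts18 lies on chromosome 8, minus strand, at 113697126 to 113848738.

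Adamts17, mutated in a Weill-Marchesani-like syndrome of fibrillin-rich tissues, read 54.5, 36.8, 28.01 and 38.5 in E14.5 bladder, 184, 119.8, 79.6 and 105 in E14.5 urethra, 36.8, 45.03 and 43.4 in E18.5 bladder and 159.8, 109 and 232 CPM in E18.5 urethra. The groups did not overlap at either stage, with differences of 3.15-fold (log2 -1.66 ± 0.28 SE, edgeR adjusted p = 0.00231) and 4.16-fold (log2 -2.06 ± 0.26 SE, edgeR adjusted p = 0.000508). Adamts16, the closest relative of Adamts18, was far less abundant, with 1.27, 0.228, 3.17 and 0.202 in E14.5 bladder, 17.2, 3.77, 7.38 and 8.47 in E14.5 urethra, 0.523, 1.33 and 0.197 in E18.5 bladder and 3.46, 2.09 and 5.92 CPM in E18.5 urethra. It was 7.84-fold higher in urethra at E14.5 (log2 -2.97, edgeR adjusted p = 0.0253) and 5.70-fold at E18.5 (log2 -2.51, edgeR adjusted p = 0.0148), again without overlap. Both calls were lost when single libraries were left out, at E14.5 without bladder replicate 1 or 4 or urethra replicate 4, and at E18.5 without bladder replicate 1. The log2 value was -4.04 without bladder replicate 3 at E14.5 and -3.42 without bladder replicate 2 at E18.5. Adamts19, the relative of Adamts17, held 5.80, 1.11, 5.47 and 3.46 in E14.5 bladder, 8.01, 19.8, 21.2 and 25.2 in E14.5 urethra, 4.81, 4.11 and 2.21 in E18.5 bladder and 11.9, 9.99 and 13.2 CPM in E18.5 urethra, and was 4.79-fold and 3.29-fold higher in urethra (log2 -2.26, edgeR adjusted p = 0.00972; log2 -1.72, edgeR adjusted p = 0.00227). Adamts6 held 9.86, 7.34, 12.2 and 7.39 in E14.5 bladder, 28.1, 35.0, 21.6 and 39.9 in E14.5 urethra, 10.4, 7.23 and 6.69 in E18.5 bladder and 19.4, 17.3 and 18.3 CPM in E18.5 urethra, and was 3.45-fold and 2.36-fold higher in urethra (log2 -1.79, edgeR adjusted p = 0.000991; log2 -1.24, edgeR adjusted p = 0.00175). With stage, Adamts10, the Weill-Marchesani syndrome protease, rose 2.12-fold in bladder (log2 1.08, edgeR adjusted p = 0.00838) and Adamts6 fell 1.70-fold in urethra (log2 -0.76, edgeR adjusted p = 0.0252). The fall of Adamts6 was lost without any 1 of 5 of the 7 urethral libraries, and the E14.5 call of Adamts10 (log2 -0.86, edgeR adjusted p = 0.0459) without any 1 of 6 of the 8. The other 4 did not pass with stage in either tissue.

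Among the 7 proteoglycanases, which cut versican and aggrecan, Adamts1, Adamts9 and Adamts15 were higher in urethra at both stages while Adamts4 and Adamts5 were higher in bladder at E18.5. Adamts1, the first ADAMTS described and a versican-cleaving enzyme, stood at 34.2, 39.5, 64.95 and 55.3 CPM in the 4 E14.5 bladder libraries, 75.7, 98.6, 120.1 and 73.96 CPM in E14.5 urethra, 124, 101 and 81.01 CPM in the 3 E18.5 bladder libraries and 309, 283 and 354 CPM in E18.5 urethra. It was 1.94-fold higher in urethra at E14.5 and 3.22-fold at E18.5 (log2 -0.96 ± 0.24 SE, edgeR adjusted p = 0.0128; log2 -1.69 ± 0.17 SE, edgeR adjusted p = 0.000164), without overlap at either stage. It also rose in both tissues, 2.11-fold in bladder (log2 1.08, edgeR adjusted p = 0.00238) and 3.42-fold in urethra (log2 1.78, edgeR adjusted p = 0.000264). Adamts15 read 16.2, 5.52, 28.6 and 6.59 in E14.5 bladder, 40.03, 41.3, 44.7 and 59.1 in E14.5 urethra, 17.6, 21.96 and 15.9 in E18.5 bladder and 93.8, 95.4 and 120.0 CPM in E18.5 urethra. Its urethral excess was 3.33-fold at E14.5 (log2 -1.73, edgeR adjusted p = 0.0219) and 5.81-fold at E18.5 (log2 -2.54, edgeR adjusted p = 2.27e-05), and the groups did not overlap. The E14.5 call was lost without bladder replicate 4 or urethra replicate 4, and the log2 value was -2.32 without bladder replicate 3. The rise of Adamts15 in urethra (log2 1.15, edgeR adjusted p = 0.049) was lost on leaving out any 1 of the 7 urethral libraries.

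Adamts9, a versicanase that also works inside the secretory pathway, held 23.4, 8.93, 36.98 and 20.2 in E14.5 bladder, 54.5, 56.8, 102 and 63.1 in E14.5 urethra, 130.5, 98.3 and 76.6 in E18.5 bladder and 169.8, 122 and 189 CPM in E18.5 urethra. It was 3.16-fold higher in urethra at E14.5 (log2 -1.66, edgeR adjusted p = 0.0112) and 1.65-fold at E18.5 (log2 -0.72, edgeR adjusted p = 0.0304), where the highest bladder library lay above the lowest urethral one. It rose 4.57-fold in bladder (log2 2.19, edgeR adjusted p = 0.000547) and 2.32-fold in urethra (log2 1.21, edgeR adjusted p = 0.0222). The E18.5 tissue call and the urethral rise each ended on leaving out any 1 of 4 libraries, and neither passed under pan-epithelial scaling. Over single libraries left out, the E18.5 difference lay between -0.90 and -0.53 on the log2 scale.

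Adamts5, the main aggrecanase of mouse cartilage, changed sides. It stood at 6.17, 3.50, 12.6 and 4.44 CPM in the 4 E14.5 bladder libraries, 21.5, 21.6, 22.9 and 20.99 CPM in E14.5 urethra, 42.8, 39.4 and 27.6 CPM in the 3 E18.5 bladder libraries and 14.4, 13.7 and 17.4 CPM in E18.5 urethra. At E14.5 every urethral library lay above every bladder library (log2 -1.74 ± 0.37 SE, edgeR adjusted p = 0.00659), and at E18.5 every bladder library lay above every urethral library (log2 1.21 ± 0.18 SE, edgeR adjusted p = 0.00134). The change of the tissue difference was log2 2.99 ± 0.47 SE, edgeR adjusted p = 0.00163. Adamts4, the other classical aggrecanase, held 2.64, 0.825, 2.25 and 1.18 in E14.5 bladder, 1.01, 2.75, 5.74 and 4.33 in E14.5 urethra, 17.9, 19.6 and 13.4 in E18.5 bladder and 3.33, 5.14 and 2.74 CPM in E18.5 urethra. The E14.5 groups overlapped (log2 -1.04, 95% interval -2.32 to 0.24, edgeR adjusted p = 0.162), while at E18.5 the bladder was 4.35-fold higher (log2 2.12, edgeR adjusted p = 0.000564), after a rise of 9.88-fold in bladder (log2 3.30, edgeR adjusted p = 0.000297). Adamts8 was at or below 6.995 CPM in every library. Its rise in bladder (log2 1.76, edgeR adjusted p = 0.0419) was lost on leaving out any 1 of 4 bladder libraries, and the log2 value was 2.36 without E14.5 replicate 3. Adamts20, known from the belted coat-colour mutant, ran from 1.05 to 10.4 CPM and passed nowhere, with log2 -1.64 at E14.5 (edgeR adjusted p = 0.0527).

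All 3 procollagen N-proteinases, which remove the amino propeptide of fibrillar procollagens, were higher in the E18.5 bladder, with no member of the group passing at E14.5 by edgeR. Among all genes, 19.3% were higher in the E18.5 bladder. At an unadjusted p under 0.05, 1 of the 3 was lower in bladder at E14.5, Adamts3, and DESeq2 called 1 lower. Adamts2, the main enzyme for procollagen I, stood at 11.1, 3.58, 13.4 and 6.01 CPM in the 4 E14.5 bladder libraries, 6.95, 6.52, 15.8 and 8.74 CPM in E14.5 urethra, 188, 154 and 94.3 CPM in the 3 E18.5 bladder libraries and 21.3, 22.1 and 24.6 CPM in E18.5 urethra. At E14.5 the tissues overlapped (log2 -0.19, 95% interval -1.22 to 0.85, edgeR adjusted p = 0.759), and at E18.5 the lowest bladder library lay far above the highest urethral one, a difference of 6.14-fold (log2 2.62 ± 0.23 SE, edgeR adjusted p = 9.42e-05). Adamts2 rose 17.1-fold in bladder (log2 4.10 ± 0.43 SE, edgeR adjusted p = 2.24e-05) and 2.39-fold in urethra (log2 1.26, edgeR adjusted p = 0.0301), the urethral rise ending without any 1 of 6 of the 7 urethral libraries. Adamts14 held 1.05, 0.398, 2.07 and 1.55 in E14.5 bladder, 1.85, 1.56, 2.73 and 2.76 in E14.5 urethra, 19.6, 13.1 and 12.8 in E18.5 bladder and 2.22, 3.20 and 2.94 CPM in E18.5 urethra, and was 5.21-fold higher in bladder at E18.5 (log2 2.38, edgeR adjusted p = 0.000237). Adamts3, which also processes the lymphatic growth factor Vegfc, read 1.24, 0.967, 2.53 and 1.18 in E14.5 bladder, 1.06, 3.20, 5.78 and 3.58 in E14.5 urethra, 10.8, 6.85 and 6.20 in E18.5 bladder and 1.54, 1.53 and 2.12 CPM in E18.5 urethra, and was 4.39-fold higher in bladder at E18.5 (log2 2.13, edgeR adjusted p = 0.000953). All 3 passed the interaction, with log2 values of 2.84 for Adamts2, 3.27 for Adamts14 and 3.41 for Adamts3.

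Col1a1, a chain of their substrate procollagen I and a gene of the mesenchyme list, averaged 790.0 CPM in E14.5 bladder, 855 in E14.5 urethra, 7833 in E18.5 bladder and 1398 in E18.5 urethra (log2 2.43, edgeR adjusted p = 3.66e-05 for the tissues at E18.5).

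Of the proteases of cartilage oligomeric matrix protein and von Willebrand factor, Adamts7 and Adamts12 were tested, and Adamts13 did not exceed 0.381 CPM in any library. Adamts7 held 11.9, 11.8, 26.3 and 15.9 in E14.5 bladder, 33.9, 56.97, 64.4 and 59.1 in E14.5 urethra, 31.5, 25.9 and 21.2 in E18.5 bladder and 26.6, 27.9 and 35.2 CPM in E18.5 urethra. It was 3.33-fold higher in urethra at E14.5 without overlap (log2 -1.74, edgeR adjusted p = 0.00292), and at E18.5 the tissues overlapped (log2 -0.25, 95% interval -0.65 to 0.15, edgeR adjusted p = 0.298). In urethra Adamts7 fell 1.79-fold (log2 -0.84, edgeR adjusted p = 0.0377), a call lost without any 1 of 6 of the 7 libraries. Adamts12, its paralog, held 7.97, 2.56, 13.3 and 5.14 in E14.5 bladder, 9.06, 13.5, 23.3 and 18.4 in E14.5 urethra, 52.7, 51.96 and 32.7 in E18.5 bladder and 9.95, 11.2 and 16.1 CPM in E18.5 urethra. The E14.5 groups overlapped (log2 -1.18, 95% interval -2.31 to -0.06, edgeR adjusted p = 0.0818), and at E18.5 the bladder was 3.53-fold higher (log2 1.82, edgeR adjusted p = 0.000629). Both passed the interaction, Adamts7 with log2 1.52 and Adamts12 with log2 3.04.

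Of the 5 ADAMTS-like genes, 3 were higher in the E18.5 bladder and none in the urethra. All 5 rose in bladder with age, with a median log2 change of 3.44, and 2 of 5 rose in urethra, Adamtsl4 and Adamtsl5. Among all genes, 19.9% rose in bladder and 17.3% in urethra, and 19.3% were higher in the E18.5 bladder. In bladder 12 of 15 mesenchyme genes (median 3.31) and all 12 leukocyte genes (median 3.42) also rose, while of 12 epithelial genes 2 rose and 4 fell. Their part in the rise was not tested. Adamtsl4, a fibrillin-binding protein mutated in families with displaced eye lenses, stood at 11.8, 5.26, 3.86 and 3.60 CPM in the 4 E14.5 bladder libraries, 3.43, 1.89, 2.21 and 1.38 CPM in E14.5 urethra, 78.3, 67.0 and 55.5 CPM in the 3 E18.5 bladder libraries and 8.33, 11.7 and 8.52 CPM in E18.5 urethra. It was higher in bladder at both stages without overlap, 2.70-fold at E14.5 (log2 1.44 ± 0.45 SE, edgeR adjusted p = 0.0315) and 6.75-fold at E18.5 (log2 2.75 ± 0.18 SE, edgeR adjusted p = 3.06e-05). The E14.5 call ended without bladder replicate 1 or 2 or urethra replicate 2, 3 or 4, and the log2 difference without bladder replicate 1 was 0.88. Adamtsl5 read 14.02, 11.5, 9.66 and 9.64 in E14.5 bladder, 5.37, 5.66, 4.74 and 5.47 in E14.5 urethra, 48.7, 32.2 and 35.6 in E18.5 bladder and 8.63, 14.7 and 8.92 CPM in E18.5 urethra, with differences of 2.07-fold (log2 1.05, edgeR adjusted p = 0.00195) and 3.47-fold (log2 1.79, edgeR adjusted p = 0.000825) in favour of the bladder. Under pan-epithelial scaling neither of the 2 passed at E14.5.

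Adamtsl2, a regulator of Tgfb signalling through fibrillin and Ltbp1, was low, with 0.248, 0.114, 0.736 and 0.336 in E14.5 bladder, 0.176, 0.738, 2.61 and 0.669 in E14.5 urethra, 6.85, 6.39 and 3.29 in E18.5 bladder and 0.854, 1.70 and 0.9502 CPM in E18.5 urethra. It rose 15.9-fold in bladder (log2 3.99, edgeR adjusted p = 0.000978), and at E18.5 the bladder exceeded the urethra 4.48-fold (log2 2.16, edgeR adjusted p = 0.00327). Its interaction (log2 3.83) was lost without E18.5 urethra replicate 1 and was 2.86 without E14.5 urethra replicate 3. Adamtsl3 (punctin 2) held 0.186, 0.171, 0.920 and 0 in E14.5 bladder, 0.880, 0.615, 1.36 and 0.473 in E14.5 urethra, 5.995, 4.61 and 2.80 in E18.5 bladder and 1.71, 2.35 and 5.03 CPM in E18.5 urethra, and rose 14.8-fold in bladder (log2 3.89, edgeR adjusted p = 0.00185). In urethra its E18.5 libraries also lay above those of E14.5, without passing (log2 1.86, 95% interval 0.29 to 3.44, edgeR adjusted p = 0.0662). Adamtsl1 (punctin) held 5.43, 1.65, 12.1 and 2.18 in E14.5 bladder, 10.1, 16.2, 19.2 and 19.3 in E14.5 urethra, 33.3, 26.2 and 15.6 in E18.5 bladder and 17.5, 14.8 and 25.2 CPM in E18.5 urethra. It rose 4.73-fold in bladder (log2 2.24, edgeR adjusted p = 0.0054), and the tissues overlapped at both stages. Without E14.5 bladder replicate 3, the highest E14.5 bladder library of both, the log2 rise was 5.15 for Adamtsl3 and 3.02 for Adamtsl1.

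Of the 2 gelatinases, which cut denatured collagen and the type IV collagen of basement membranes, Mmp2 was abundant and changed sides, and Mmp9 became a bladder gene at E18.5. Mmp2 stood at 57.4, 26.5, 126 and 63.8 CPM in the 4 E14.5 bladder libraries, 92.8, 201, 265 and 198 CPM in E14.5 urethra, 361, 311 and 213 CPM in the 3 E18.5 bladder libraries and 134, 123 and 180.4 CPM in E18.5 urethra. It was 2.83-fold higher in urethra at E14.5 (log2 -1.50 ± 0.47 SE, edgeR adjusted p = 0.0317), where bladder replicate 3 lay above urethra replicate 1, and 1.93-fold higher in bladder at E18.5 without overlap (log2 0.95 ± 0.21 SE, edgeR adjusted p = 0.00771). The E14.5 call was lost on leaving out any 1 of 5 libraries, and the E18.5 call when all 14 libraries were fitted together. The change of the tissue difference passed (log2 2.48 ± 0.61 SE, edgeR adjusted p = 0.0128). Mmp9 read 2.14, 0.910, 2.67 and 2.29 in E14.5 bladder, 0.176, 1.48, 6.62 and 2.48 in E14.5 urethra, 13.3, 8.26 and 8.56 in E18.5 bladder and 0.470, 0.823 and 1.17 CPM in E18.5 urethra. The E14.5 groups overlapped, with urethral values both below and above all bladder values (log2 -0.47, 95% interval -2.32 to 1.38, edgeR adjusted p = 0.66), and at E18.5 the bladder was 11.5-fold higher (log2 3.52, edgeR adjusted p = 0.000246). Its rise in bladder (log2 2.33, edgeR adjusted p = 0.0204) ended without bladder E14.5 replicate 2 or bladder E18.5 replicate 1. The interaction (log2 4.02) ended without E18.5 urethra replicate 1 and was 3.07 without E14.5 urethra replicate 3. Leukocyte genes moved with Mmp9 in the tissues, with a summed level of 12 genes of 340.2 to 473.5 CPM in E18.5 bladder and 96.1 to 110.9 CPM in E18.5 urethra, and their part in its difference was not tested.

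The stromelysin and matrilysin group held Mmp7, which rose in both tissues and was higher in the E18.5 urethra, and Mmp11, the 1 member that fell in both tissues. Mmp7 (matrilysin), a small protease typical of glandular and mucosal epithelium, stood at 0.0620, 0, 0.0920 and 0 CPM in the 4 E14.5 bladder libraries, 2.199, 0.574, 0.241 and 0.394 CPM in E14.5 urethra, 0.285, 1.68 and 0.885 CPM in the 3 E18.5 bladder libraries and 4.44, 32.4 and 5.98 CPM in E18.5 urethra. All E18.5 urethral libraries lay above all bladder libraries, and replicate 2 of E18.5 urethra stood far above the other 2. Mmp7 was 15.3-fold higher in urethra at E18.5 (log2 -3.93 ± 0.88 SE, edgeR adjusted p = 0.00863) and rose 24.8-fold in bladder (log2 4.63, edgeR adjusted p = 0.00935) and 16.9-fold in urethra (log2 4.08, edgeR adjusted p = 0.00419). The bladder fold rests on 4 counts in all E14.5 libraries and 68 in all E18.5 libraries, with means of 0.0385 and 0.949 CPM, so its size is uncertain. Without replicate 2 of E18.5 urethra the E18.5 difference was -2.50 and the urethral rise 2.64 on the log2 scale, and both still passed. Mmp7 did not enter the tissue test at E14.5, where the urethral libraries held 0.2408 to 2.199 CPM and 2 bladder libraries held none.

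Mmp11 (stromelysin 3), which is activated inside the cell by furin, read 47.6, 122, 138 and 116 in E14.5 bladder, 105, 138, 106 and 113 in E14.5 urethra, 23.9, 21.9 and 25.7 in E18.5 bladder and 56.8, 42.4 and 49.5 CPM in E18.5 urethra. It fell 4.45-fold in bladder (log2 -2.15 ± 0.28 SE, edgeR adjusted p = 0.000103) and 2.33-fold in urethra (log2 -1.22 ± 0.27 SE, edgeR adjusted p = 0.00485) with no overlap of the stages. Bladder E14.5 replicate 1 stood below the other 3 libraries of its group and still above all of E18.5 bladder. At E18.5 the bladder was the lower tissue (log2 -1.11, edgeR adjusted p = 0.000664). Mmp10 (stromelysin 2) had 52 counts in the E18.5 bladder and 2 counts in E18.5 urethra, a ratio of 35.9 with a 95% counting interval of 9.44 to 304 (log2 4.89, edgeR adjusted p = 0.00298), and the fitted log2 difference ran from 4.34 to 7.29 on leaving out single libraries. Both urethral counts came from 1 library. Mmp10 passed the filter only through the E18.5 bladder, the group where it was high. Its p-value and its place among the 19 members higher there are therefore no independent support.

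The membrane-type enzymes sit on the cell surface, and their most abundant members, Mmp14 and Mmp15, behaved differently. Mmp14 (MT1-MMP), the activator of the Mmp2 precursor, stood at 92.7, 70.7, 117 and 104 CPM in the 4 E14.5 bladder libraries, 216, 234, 242 and 228 CPM in E14.5 urethra, 269.7, 255 and 189 CPM in the 3 E18.5 bladder libraries and 271, 238 and 289 CPM in E18.5 urethra. At E14.5 it was 2.44-fold higher in urethra without overlap (log2 -1.29 ± 0.15 SE, edgeR adjusted p = 0.000601), and at E18.5 the tissues overlapped (log2 -0.22, 95% interval -0.56 to 0.11, edgeR adjusted p = 0.271), after a rise of 2.47-fold in bladder (log2 1.31, edgeR adjusted p = 5.42e-05). Mmp15 (MT2-MMP) read 92.3, 108, 109.8 and 128 in E14.5 bladder, 185, 121, 95.3 and 83.3 in E14.5 urethra, 136, 106 and 135 in E18.5 bladder and 326, 241 and 304 CPM in E18.5 urethra. Its E14.5 groups overlapped (log2 -0.18, 95% interval -0.71 to 0.36, edgeR adjusted p = 0.565). All 3 E18.5 urethral libraries then stood above every other library of the study, 2.41-fold above E18.5 bladder (log2 -1.27 ± 0.16 SE, edgeR adjusted p = 0.000553) and 2.40-fold above E14.5 urethra (log2 1.26, edgeR adjusted p = 0.00149). Mmp15 was the 1 member whose tissue difference moved towards the urethra (log2 -1.07 ± 0.32 SE, edgeR adjusted p = 0.0316), a call that ended on leaving out any 1 of 9 of the 14 libraries and turned to log2 0.20 under pan-epithelial scaling.

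Mmp17, anchored to the membrane by a lipid tail, held 2.202, 1.31, 3.63 and 1.61 in E14.5 bladder, 3.92, 3.52, 5.98 and 3.62 in E14.5 urethra, 22.8, 20.6 and 7.67 in E18.5 bladder and 1.71, 2.997 and 2.91 CPM in E18.5 urethra. The E14.5 groups overlapped (log2 -0.996, 95% interval -1.82 to -0.17, edgeR adjusted p = 0.0524), and at E18.5 the bladder was 6.36-fold higher (log2 2.67, edgeR adjusted p = 0.00148) after a rise of 7.82-fold (log2 2.97, edgeR adjusted p = 0.000153). Mmp16 (MT3-MMP) held 10.2, 4.58, 12.4 and 5.71 in E14.5 bladder, 8.88, 17.4, 20.8 and 19.2 in E14.5 urethra, 7.28, 9.21 and 5.66 in E18.5 bladder and 7.05, 7.84 and 10.01 CPM in E18.5 urethra, and fell 1.99-fold in urethra with overlapping stages (log2 -0.99, edgeR adjusted p = 0.0492), a call that ended with DESeq2 size factors, with no filter, or without any 1 of 6 urethral libraries. Mmp24, typical of neural tissue, did not exceed 3.02 CPM in any library, and its lower level in E14.5 bladder (log2 -1.43, edgeR adjusted p = 0.0499) ended without any 1 of 6 libraries. Mmp25, a lipid-anchored enzyme of leukocytes, did not exceed 1.52 CPM and passed nowhere.

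Among the remaining Mmp genes, Mmp23 and Mmp28 marked the bladder at both stages, Mmp19 rose most, and Mmp20 was a trace signal of the E14.5 urethra. Mmp23, a small membrane-tethered Mmp that lacks the usual haemopexin domain, stood at 23.2, 25.2, 22.8 and 23.3 CPM in the 4 E14.5 bladder libraries, 6.42, 4.84, 8.55 and 5.63 CPM in E14.5 urethra, 51.7, 45.9 and 38.95 CPM in the 3 E18.5 bladder libraries and 7.52, 10.4 and 6.12 CPM in E18.5 urethra. The 4 E14.5 bladder libraries lay close together, and the highest urethral library of either stage, at 10.4 CPM, was under the lowest bladder library, at 22.8 CPM. The bladder excess was 3.63-fold at E14.5 (log2 1.86 ± 0.18 SE, edgeR adjusted p = 0.000408) and 5.46-fold at E18.5 (log2 2.45 ± 0.21 SE, edgeR adjusted p = 8.68e-05). The E14.5 difference also passed under pan-epithelial scaling, the only one of the 4 bladder-high members to do so. Mmp28 (epilysin), an enzyme of surface epithelia such as epidermis, read 13.2, 8.54, 7.68 and 8.54 in E14.5 bladder, 2.38, 2.54, 3.89 and 1.26 in E14.5 urethra, 13.1, 16.2 and 11.8 in E18.5 bladder and 8.03, 7.49 and 6.18 CPM in E18.5 urethra. It was 3.68-fold higher in bladder at E14.5 (log2 1.88 ± 0.35 SE, edgeR adjusted p = 0.00339) and 1.82-fold at E18.5 (log2 0.87, edgeR adjusted p = 0.00819), without overlap. The urethra gained Mmp28 with age, 2.87-fold (log2 1.52, edgeR adjusted p = 0.00275), a rise that did not pass under pan-epithelial scaling.

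Mmp19 stood at 1.64, 0.683, 0.920 and 0.605 CPM in the 4 E14.5 bladder libraries, 0.792, 0.492, 1.04 and 0.669 CPM in E14.5 urethra, 47.7, 42.9 and 27.1 CPM in the 3 E18.5 bladder libraries and 1.97, 4.53 and 2.49 CPM in E18.5 urethra. At E14.5 no library exceeded 1.64 CPM and the tissues overlapped (log2 0.33, 95% interval -0.59 to 1.25, edgeR adjusted p = 0.532). By E18.5 it had risen 40.5-fold in bladder (log2 5.34 ± 0.41 SE, edgeR adjusted p = 3.62e-06), the greatest fold among the members that rose there, and 3.99-fold in urethra (log2 1.998, edgeR adjusted p = 0.00245), and was 12.4-fold higher in bladder than in urethra (log2 3.64 ± 0.34 SE, edgeR adjusted p = 0.000125). Exons of Gm47093 and Tmem198b on the opposite strand share 28.3% of the exon bases of Mmp19, so its counts could include their reads if strand was not used in counting. Mmp20 (enamelysin), best known from tooth enamel, held 0.0620, 0.228, 0 and 0 in E14.5 bladder, 3.96, 2.79, 0.642 and 2.52 in E14.5 urethra, 0, 0 and 0.0492 in E18.5 bladder and 0.427, 0.294 and 0.280 CPM in E18.5 urethra. It was 29.8-fold higher in urethra at E14.5 (log2 -4.90, edgeR adjusted p = 0.00363) and fell 7.42-fold in urethra with age (log2 -2.89, edgeR adjusted p = 0.0129). Mmp20 passed the filter through the E14.5 urethra, the group where it was high, so these p-values are no independent support. The tissue value was -6.49 without bladder replicate 2, which held 8 of the 10 bladder counts, and the fall ended without E18.5 urethra replicate 2 or 3.

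**Figure D4:**
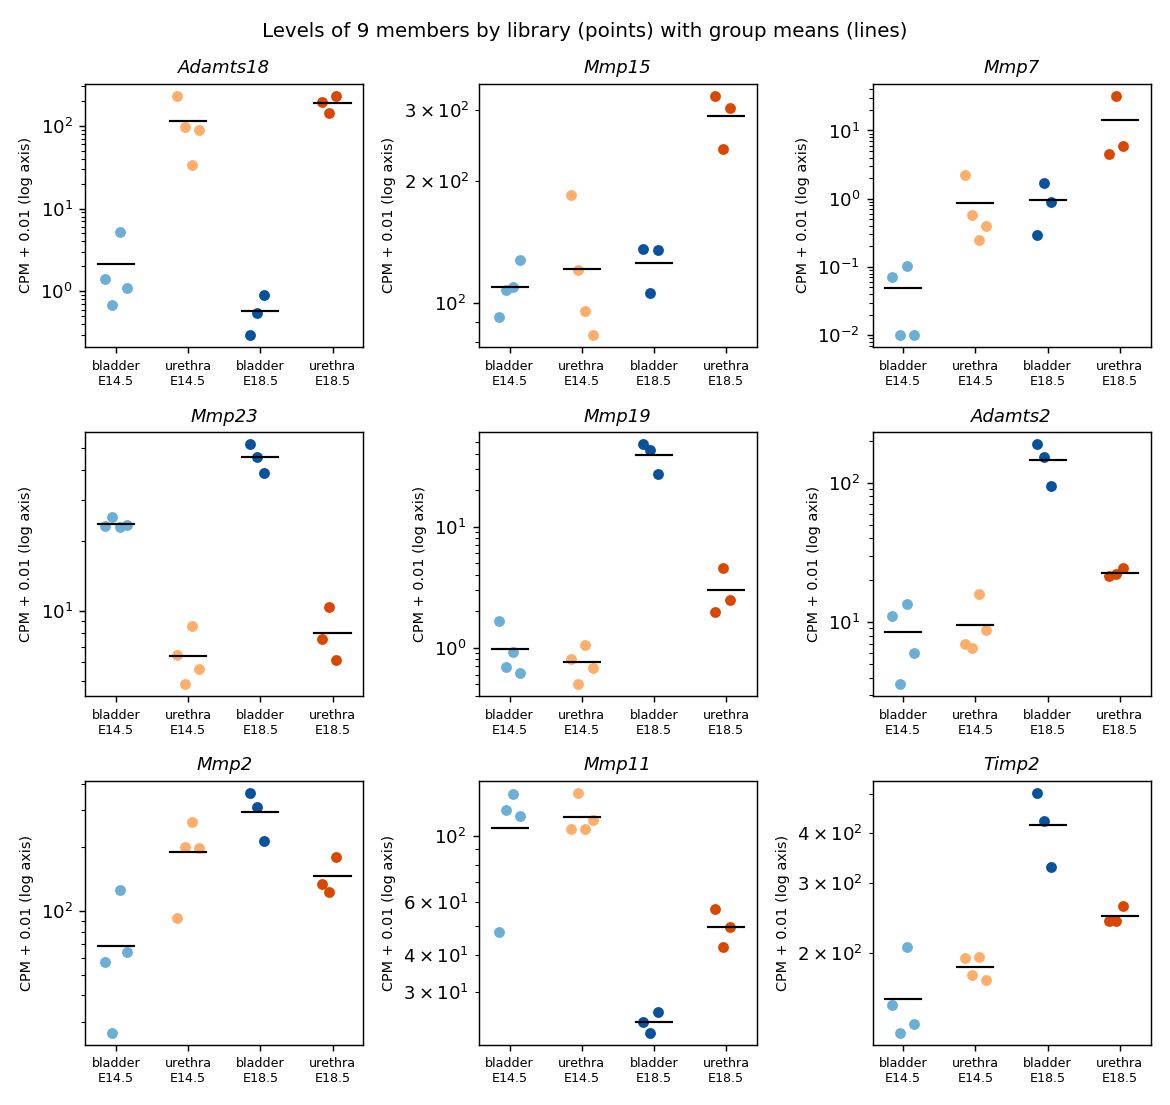
CPM plus 0.01 (log axes) of 9 members in each library (points, coloured by group) with group means (lines). Adamts18 and Mmp23 separate the tissues at both stages, Mmp15 and Mmp7 are highest in E18.5 urethra, Mmp19 and Adamts2 in E18.5 bladder, Mmp2 swaps sides, and Mmp11 is lower at E18.5 in both tissues.

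All 4 inhibitors rose in the bladder with age, and 3 of them exceeded the urethra at E18.5. Among all genes, 19.9% rose in bladder and 19.3% were higher in bladder at E18.5. In edgeR 0 of 4 passed between tissues at E14.5, although Timp1 and Timp3 were lower in bladder at an unadjusted p under 0.05, and DESeq2 called 2 lower. Timp2, the inhibitor that pairs with Mmp14 and Mmp2, stood at 148, 126, 207 and 133 CPM in the 4 E14.5 bladder libraries, 194, 176, 195 and 171 CPM in E14.5 urethra, 503, 429 and 328 CPM in the 3 E18.5 bladder libraries and 241, 240.1 and 262 CPM in E18.5 urethra. Its E14.5 groups overlapped through bladder replicate 3 (log2 -0.29, 95% interval -0.66 to 0.07, edgeR adjusted p = 0.165), and at E18.5 the bladder was 1.63-fold higher (log2 0.70 ± 0.15 SE, edgeR adjusted p = 0.00692) after a rise of 2.74-fold (log2 1.45 ± 0.17 SE, edgeR adjusted p = 4.18e-05). In urethra the E18.5 libraries also lay above those of E14.5, without passing (log2 0.43, 95% interval 0.07 to 0.79, edgeR adjusted p = 0.0662). Timp1, which inhibits most secreted Mmps but membrane types poorly, read 2.29, 2.73, 4.09 and 2.55 in E14.5 bladder, 4.05, 4.43, 6.74 and 4.10 in E14.5 urethra, 19.6, 13.02 and 10.7 in E18.5 bladder and 4.53, 5.96 and 4.28 CPM in E18.5 urethra. It rose 4.95-fold in bladder (log2 2.31, edgeR adjusted p = 5.53e-05), and the E18.5 bladder was 2.81-fold above the urethra (log2 1.49, edgeR adjusted p = 0.00278).

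Timp3, bound to matrix and the main natural inhibitor of Adamts4 and Adamts5, held 36.6, 7.91, 54.1 and 19.1 in E14.5 bladder, 75.9, 69.6, 95.3 and 61.7 in E14.5 urethra, 154, 146 and 77.5 in E18.5 bladder and 124, 122 and 151 CPM in E18.5 urethra. In E14.5 bladder it ran over a wide range, all of it below urethra (log2 -1.39, 95% interval -2.53 to -0.25, edgeR adjusted p = 0.0505), and at E18.5 the tissues overlapped (log2 -0.14, 95% interval -0.66 to 0.39, edgeR adjusted p = 0.677). It rose 4.29-fold in bladder (log2 2.10, edgeR adjusted p = 0.00274), and exons of Syn3 on the opposite strand share 21.3% of its exon bases. Timp4, the least abundant inhibitor, held 0.558, 0.455, 0.460 and 1.14 in E14.5 bladder, 0.396, 1.23, 0.642 and 0.236 in E14.5 urethra, 5.28, 4.61 and 4.97 in E18.5 bladder and 0.299, 0.470 and 0.503 CPM in E18.5 urethra. It was 10.96-fold higher in bladder at E18.5 (log2 3.45 ± 0.32 SE, edgeR adjusted p = 0.000128), where the lowest E18.5 bladder library held 4.61 CPM and no library of the other groups exceeded 1.23 CPM. The interaction passed for Timp1 (log2 2.28), Timp2 (log2 1.03) and Timp4 (log2 3.45), and not for Timp3 (log2 1.29, 95% interval -0.10 to 2.69, edgeR adjusted p = 0.167).

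Summed per kilobase of exon, the 4 Timp genes came to 46.4 ± 12.6 CPM in E14.5 bladder and 62.1 ± 5.86 in E14.5 urethra (SD, n = 4 each), and to 140.4 ± 32.3 in E18.5 bladder and 85.4 ± 4.59 in E18.5 urethra (SD, n = 3 each). The 19 Adamts genes had sums of 27.7 ± 7.44, 80.6 ± 4.71, 76.7 ± 15.7 and 140.1 ± 23.7 CPM per kilobase in the same order. The 23 Mmp genes summed to 109.8 ± 25.5, 167.7 ± 18.6, 201.4 ± 36.3 and 181.4 ± 7.14, and the 5 Adamtsl genes to 4.34 ± 1.35, 3.16 ± 0.27, 27.4 ± 5.32 and 6.58 ± 1.03. The sums are descriptions and were not tested.

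Within groups, the libraries with the highest and lowest mesenchyme sum were often also those with the highest and lowest level of a member. In E14.5 bladder, 30 of the 41 members tested by stage were highest in replicate 3, the library with the highest mesenchyme sum, and 26 were lowest in replicate 2, the library with the lowest. In E18.5 bladder 29 were highest in replicate 1 and 30 lowest in replicate 3, again the extremes of the sum. In urethra 25 were highest and 20 lowest in the extreme library at each stage. The share of all genes extreme in the same libraries was not counted, so a shift of whole libraries cannot be told apart. Some members went the other way. In E14.5 urethra Adamts18 held 33.3 CPM in the library of the highest sum and 231 CPM in that of the lowest, and Mmp20 held 0.642 and 3.96 CPM. The mesenchyme genes themselves rose by a median log2 of 3.31 in bladder with age, and 7 of the 26 risen members exceeded that (Adamts14, Adamts2, Adamtsl2, Adamtsl3, Adamtsl4, Mmp19 and Mmp7). Of these, Mmp7 had only 4 counts in all E14.5 bladder libraries. With the mean log2 level of the mesenchyme genes as a covariate, 1 member passed as risen in bladder, Mmp19 (log2 3.62, edgeR adjusted p = 0.0441), and 3 were lower at E18.5 (Mmp16, Adamts15 and Adamts19). Of all genes, 1.68% passed with stage in bladder under that covariate, beside 40.3% without it. With that covariate in a fit of all 14 libraries, a setting added after the data were seen, 7 members were higher in bladder at E18.5 (Adamts2, Adamtsl4, Adamtsl5, Mmp17, Mmp19, Mmp23 and Timp4) and 14 in urethra, with Adamts18 at log2 -8.55. In that fit 19.6% of all genes passed between the tissues at E18.5. In the 6 libraries of E18.5 alone the covariate left 0 members and 0.0171% of all genes passing by edgeR, against 3 higher and 9 lower members at an unadjusted p under 0.05. The mesenchyme sums of the 2 tissues do not overlap at that stage, and the covariate and the tissue cannot be told apart. The bladder sums of the 2 stages do not overlap either, at 956.8 to 4386 and 19890 to 30430 CPM, so in bladder the covariate moves with stage.

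The genes around the proteases were read from 2 lists. Of the 25 genes for activation, surface inhibition and uptake, 24 were tested with stage, and 15 rose and 0 fell in bladder by edgeR, while 8 rose and 1 fell in urethra. Those that passed made up 62.5% of the list in bladder and 37.5% in urethra, beside 40.3% and 33.0% of all genes. Between tissues, 3 were higher in bladder and 10 in urethra at E14.5 (22 tested), and 7 and 3 at E18.5 (24 tested). That was 59.1% and 41.7% of the list, beside 44.0% and 37.9% of all genes, so the E18.5 share and the urethral share with stage were near those of all genes. Thbs2, a matrix protein that carries Mmp2 to uptake, averaged 27.2, 37.2, 414 and 50.7 CPM in E14.5 bladder, E14.5 urethra, E18.5 bladder and E18.5 urethra (log2 2.97, edgeR adjusted p = 3.24e-05 at E18.5). Cd44, a hyaluronan receptor that docks Mmp9 and Mmp14, averaged 3.04, 12.7, 61.9 and 90.8 CPM, and rose in both tissues (log2 4.35, edgeR adjusted p = 1.7e-05 in bladder, log2 2.84, edgeR adjusted p = 0.000437 in urethra). Plau, the urokinase that starts the plasmin route of Mmp activation, rose in both as well (log2 2.56, edgeR adjusted p = 1.56e-06 in bladder, log2 1.38, edgeR adjusted p = 0.000206 in urethra). Htra1, a secreted serine protease of matrix proteins, averaged 1.55, 7.90, 119 and 16.9 CPM, lower in bladder at E14.5 (log2 -2.38, edgeR adjusted p = 0.0124) and higher there at E18.5 (log2 2.76, edgeR adjusted p = 0.000115). Pcolce, the enhancer of procollagen C-proteinases, was higher in bladder at E18.5 (log2 2.47, edgeR adjusted p = 9.44e-05). Reck, a membrane inhibitor of Mmp2, Mmp9 and Mmp14, changed sides as Mmp2 did, being higher in urethra at E14.5 (log2 -1.29, edgeR adjusted p = 0.0276) and in bladder at E18.5 (log2 1.04, edgeR adjusted p = 0.00303). Reck was chosen after its values were seen.

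Of the 19 ADAMTS substrates and cofactors, 2 were higher in bladder and 5 in urethra at E14.5 (17 tested), and 7 and 3 at E18.5 (16 tested). With stage, 8 rose and 2 fell in bladder and 2 rose and 4 fell in urethra (17 tested). The list's share was 41.2% at E14.5 and 35.3% with stage in urethra, near the 44.0% and 33.0% of all genes, and 62.5% at E18.5 and 58.8% with stage in bladder, beside 37.9% and 40.3%. Fbn1, the fibrillin bound by several ADAMTS and ADAMTS-like proteins, was higher in bladder at E18.5 (log2 1.84, edgeR adjusted p = 0.000618). Papln (papilin), a protein related to ADAMTS-like proteins, was urethral at both stages (log2 -4.49, edgeR adjusted p = 0.00582 at E14.5, log2 -1.69, edgeR adjusted p = 0.000293 at E18.5) and averaged 1.65, 36.9, 37.1 and 116 CPM in the same order of groups. Ltbp2, a microfibril protein, was urethral at both stages as well (log2 -3.74, edgeR adjusted p = 0.0108 at E14.5, log2 -3.74, edgeR adjusted p = 3.98e-05 at E18.5). Fbln1, a cofactor of Adamts1, rose in bladder (log2 1.71, edgeR adjusted p = 0.000127). Has2, which makes the hyaluronan that holds versican, rose in bladder (log2 2.12, edgeR adjusted p = 0.0104) and fell in urethra (log2 -1.996, edgeR adjusted p = 0.0244). Vcan, the versican substrate of Adamts1, Adamts5 and Adamts9, chosen after its values were seen, fell in both tissues (log2 -0.83, edgeR adjusted p = 0.0421 in bladder, log2 -1.43, edgeR adjusted p = 0.00404 in urethra).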

How the data were processed

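Bladder and urethral epithelium of pooled female litters was profiled by poly(A) RNA-seq from 60 ng of RNA, with a directional kit and 100-base paired reads, per the labels' protocols. HISAT2 2.2.1, SAMtools 1.9, bcl2fastq and the build GRCm38 are listed, per the submitters' processing notes. Which program counted reads, whether it used strand and which annotation it used: not given in the sources used here. The authors deposited whole-number counts per gene, unnormalized, in 1 table per stage, together with an exon length per gene (unit other), which served for levels per kilobase. Per the labels 4 litters gave the E14.5 and 3 gave the E18.5 libraries, while the extraction notes give 3 litters. In every library genes with 2 counts outnumbered genes with 1 count 2.19- to 2.78-fold, so both reads of a pair may have been counted and the counting interval covers counting error only and may be too narrow. Replicates differed by more than sampling noise, with a chi-square per gene of 10.3 to 105.9 within groups.

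From the deposited counts, CPM used TMM effective library sizes over all 14 libraries. Tests were edgeR 4.0.16 quasi-likelihood F tests in R 4.3.3 after filterByExpr, adjusted over all genes tested. Tissues were compared within 1 stage (8 or 6 libraries), stages and the tissue by stage interaction over all 14. Alternatives were DESeq2 1.42.0, DESeq2 size factors, no filter, a filter at 1 CPM, pan-epithelial scaling, a mesenchyme covariate, other library sets, a replicate block and leaving out each library. Each litter gave both a bladder and a urethral library, per the labels, which do not say that a shared number marks a litter. Correlations of same-numbered libraries ran from -0.104 to 0.391 at E14.5 and from -0.189 to 0.138 at E18.5, not over 0.1 in every pair. Those of different-numbered libraries ran from -0.392 to 0.262 and from -0.268 to 0.359. These overlapping ranges cannot show whether numbers mark litters. Tissues were compared without a litter term, with the replicate block as an alternative. The scripts were tested on simulated data. The members and all lists were chosen with earlier results of these data known. Named with a value in every library were all Timp genes and, per comparison and direction, up to 8 passing members of the largest change with at least 1 CPM in the higher group; of partner lists, the 5 genes of smallest adjusted p. Further members are named for their role. P-values measure the spread between libraries of pooled litters. The tissue and interaction tests treat the bladder and the urethral library of a litter as independent.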

Additional observations from a re-analysis of the deposited data

Results flagged for a closer look

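In groups of 4 libraries, 6 members had 1 library far from the other 3 of its group, by a gap over Dixon's 95% critical value for 4 samples, where chance gives about 1 in 20 groups and 64 were examined. In E14.5 bladder these were Adamts18 in replicate 3 (5.24 CPM, the others 0.683 to 1.40), Mmp28 in replicate 1 (13.2 CPM, the others 7.68 to 8.54) and Timp4 in replicate 4 (1.14 CPM, the others 0.455 to 0.558). In E14.5 urethra these were Mmp17 in replicate 3 (5.98 CPM, the others 3.53 to 3.92), Mmp7 in replicate 1 (2.199 CPM, the others 0.241 to 0.574) and Timp1 in replicate 3 (6.74 CPM, the others 4.05 to 4.43).

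The difference between bladder and urethra changed with stage for 18 members by the interaction test, given here as log2 values that are positive where the difference moved towards the bladder. Among ADAMTS proteases they were 3.41 for Adamts3, 3.27 for Adamts14, 3.19 for Adamts4, 3.04 for Adamts12, 2.99 for Adamts5, 2.84 for Adamts2, 1.52 for Adamts7 and 1.43 for Adamts10. Adamtsl2 stood at 3.83. Among Mmp genes the values were 4.02 for Mmp9, 3.71 for Mmp17, 3.34 for Mmp19, 2.48 for Mmp2, 1.10 for Mmp14 and -1.07 for Mmp15. Among the inhibitors they were 3.45 for Timp4, 2.28 for Timp1 and 1.03 for Timp2. The mesenchyme genes moved the same way, with a median of 2.96 and 13 of 15 passing.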

How the results depend on the processing

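At E14.5, where 4 members were higher in bladder and 15 lower, 1 member was higher in bladder and 31 lower under pan-epithelial scaling, 23 were lower in DESeq2 and 7 with the mesenchyme covariate. At E18.5 the covariate left 0 higher and 0 lower by edgeR (3 and 9 at an unadjusted p under 0.05), and with all 14 libraries, a setting added after the data were seen, 7 were higher. In bladder 1 rose and 3 fell with the covariate, and 2 fell in DESeq2. In urethra 5 rose and 13 fell under pan-epithelial scaling, and 11 fell with the covariate. In the interaction 31 moved towards the bladder and 0 towards the urethra under pan-epithelial scaling, and 0 towards the bladder with the covariate, where edgeR gave 4 and 8 in the 2 directions at an unadjusted p under 0.05. Shares of all genes passing moved as well. Under pan-epithelial scaling they were 71.5% at E14.5, 40.5% at E18.5, 33.1% with stage in bladder, 59.2% in urethra and 71.9% in the interaction. With the covariate they were 18.1%, 0.0171%, 1.68%, 38% and 0.284% in the same order, and 19.6% at E18.5 with all 14 libraries. In DESeq2 49.7% passed at E14.5 and 43.3% with stage in bladder. The cause of these shifts was not tested.

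Leaving out single libraries gave 3 to 4 higher and 10 to 26 lower at E14.5 (26 without bladder replicate 3), 19 to 20 higher and 10 to 11 lower at E18.5, 24 to 28 risen and 1 fallen in bladder, 7 to 9 risen and 1 to 8 fallen in urethra (8 without E14.5 urethra replicate 1, 1 without E18.5 urethra replicate 2 or 3), and 14 to 21 and 0 to 2 in the interaction.

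Over 24 settings, 1069 of 1227 values of single members (87.1%) kept their direction and their side of the threshold. The sign turned in these cases. In the E14.5 tissue difference, Timp4 was at -0.96 under pan-epithelial scaling, -0.115 with the covariate, -0.0265 with the covariate in all 14 libraries, and from -0.364 (without bladder replicate 4) to 0.586 (without urethra replicate 2) on leaving out single libraries, and Timp2 was at 0.0397 with the covariate in all 14 libraries. At E18.5 Timp3 was at 0.32 under pan-epithelial scaling and from -0.272 to 0.139 (without bladder replicates 1 and 3) on leaving out single libraries, and with the covariate Mmp17 was at -1.16, Timp1 at -0.0449 and Timp2 at -0.36. With the covariate the bladder change was -0.43 for Adamtsl2 and -0.71 for Timp3. In urethra, pan-epithelial scaling gave -0.87 for Timp1, -0.41 for Timp2 and -0.0478 for Timp3, the covariate -0.0165 for Timp1, and leaving out single libraries -0.0911 to 0.2599 for Timp1 (the ends without E18.5 replicate 2 and E14.5 replicate 3) and -0.809 to 0.0213 for Timp4 (the ends without E14.5 replicates 4 and 2). In the interaction Mmp15 was at 0.20 under pan-epithelial scaling, and with the covariate Adamtsl2 was at -0.59 and Timp3 at -1.30.

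With the replicate block, by a number not shown to mark shared litters, 4 and 19 members passed as higher and lower at the earlier stage (4 and 15 without it), 19 and 11 at the later one, and 17 and 1 in the interaction. Of 47 values under the block, from the same selected members, 45 kept their call.

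The depth limits members under 1 CPM, and the bladder libraries of E18.5, high in mesenchyme, smooth muscle, endothelial and leukocyte genes, differ from all others in composition, so tissue, stage and composition cannot be told apart for members that follow those genes.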

Other observations

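Several members share exon bases with a gene on the opposite strand, which matters only if counting ignored strand. Beside Mmp19 and Timp3, the shares were 13.6% for Mmp24, 12.03% for Mmp28, 11.99% for Adamts9, 11.5% for Mmp7, whose partner has 0 counts, 10.6% for Adamts8, 5.58% for Mmp11, 3.56% for Adamts4, 1.94% for Adamts7 and 1.53% for Timp4. The neighbours Mmp1b and Mmp12 overlap each other over 10.8% and 2.17% of their exon bases.

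Of the 18 members with matched promoters that reached 10 CPM in some group, 14 held a GC box within 250 bases before the start and 1 held the AP-1 letters, while of the 11 matched members under 1 CPM in every group 1 held a GC box and 6 the AP-1 letters. Most of the latter are neighbours on chromosome 9, so these genes are not independent of each other.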
